A study of Mus musculus with 2 samples.

Results

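The replication-dependent histone genes were described in newborn mouse liver. They were taken as every gene whose GENCODE M21 symbol begins with Hist1h to Hist4h followed by a core or linker histone type, pseudogene symbols ending in -ps left out. The rule matched 69 symbols, of which 66 were among the 43346 Ensembl genes of the deposited tables, and these 66 genes are described here. Hist1h2bh, Hist1h2bm and Hist2h2bb were not analysed here. The 66 genes comprised 6 H1, 20 H2A, 15 H2B, 12 H3 and 13 H4 genes. With the cluster read from the symbol, Hist1 on chromosome 13 held 54 of them and Hist2 on chromosome 3 held 9. The Hist3 pair lay on chromosome 11, and Hist4h4 lay on chromosome 6. M21 lists 64 of the 66 genes as protein-coding and Hist1h2aj and Hist1h2al as pseudogenes. Hist1h2al, at chr13:51202727-51203065, lies apart from the other Hist1 genes.

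Total RNA was sequenced from the livers of 2 B6NCrl pups at postnatal day 0, named pup 2 and pup 1, which were littermates of unrecorded sex and formed a single group with no treatment or mutation. Each library was made from 10 ng of RNA above 200 nt with spike-in RNA, and held 41443673 expected counts for pup 2 and 42124582 for pup 1. Although the assay is labelled as total RNA, a cited manual belongs to a kit that primes cDNA with oligo-dT, and which priming was applied is not recorded. How the priming affected RNAs that end without a poly(A) tail was not tested. With 1 library per pup there is no test between the pups. Values are TPM, a share of all transcripts that divides reads by transcript length, and errors are SD over the 2 livers.

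Histones package DNA: H2A, H2B, H3 and H4 form the nucleosome core, and H1 binds the linker DNA between cores. Cells make most core histone in S phase, when new DNA has to be packaged, from many similar genes grouped in clusters. The mRNAs of these genes usually end in a conserved stem-loop instead of a poly(A) tail. The stem-loop is bound by the protein Slbp and directs 3' end processing, translation and, when replication stops, decay. The liver at birth is both a growing organ and a site of blood formation, so it holds dividing hepatocytes and dividing blood precursors. In bulk RNA, more dividing cells and more histone RNA per dividing cell cannot be told apart.

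The stem-loop, a paired stem closed by a loop with a run of T, was searched in the M21 transcripts after the stop codon. Of the 64 genes with a coding sequence, 50 have at least 16 nt of annotated sequence past the stop codon, and 42 of these 50 carried the stem-loop, 21 to 58 nt after the stop codon. Among 44730 protein-coding transcripts of other genes, 11 carried it, or 0.0246%, a share counted over transcripts and not genes. They belong to the histone genes H2afx, H2bfm, Hist1h2bh and Hist1h2bm and to Nova2 and Syncrip, which are not histone genes. The core was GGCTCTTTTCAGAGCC in 24 histone genes, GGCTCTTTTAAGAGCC in 6 and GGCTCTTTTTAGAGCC in 1, all of them H1, H2A, H2B or H3 genes. The H4 genes carried other stems, which were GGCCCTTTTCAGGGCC in 7, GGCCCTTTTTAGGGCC in 2 and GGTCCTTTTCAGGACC in 2. The following 8 sites show these 6 forms at abundant and scarce genes, read 5' to 3' from GENCODE M21 transcripts with the stem-loop in capitals (positions on GRCm38).

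Hist1h1c (chr13:23739507-23739532, plus strand): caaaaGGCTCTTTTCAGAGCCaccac

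Hist1h2ap (chr13:21833026-21833049, minus strand): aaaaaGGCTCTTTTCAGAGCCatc

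Hist2h2ac (chr3:96220413-96220438, minus strand): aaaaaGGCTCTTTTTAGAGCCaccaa

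Hist1h2bg (chr13:23571838-23571863, plus strand): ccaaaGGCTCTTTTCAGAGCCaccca

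Hist1h3c (chr13:23745042-23745067, minus strand): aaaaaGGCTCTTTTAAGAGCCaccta

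Hist1h4d (chr13:23581945-23581970, plus strand): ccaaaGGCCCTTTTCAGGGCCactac

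Hist2h4 (chr3:96262934-96262959, minus strand): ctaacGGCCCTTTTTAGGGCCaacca

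Hist1h4b (chr13:23757361-23757386, plus strand): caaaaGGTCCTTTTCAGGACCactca

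The 8 genes without a match were Hist1h2bc, Hist2h3b, Hist1h3g, Hist2h2be, Hist1h1a, Hist1h4a, Hist1h2bq and Hist1h2br. Annotation limits this search: Hist2h3b and Hist1h1a reach only 37 and 48 nt past the stop codon. For Hist1h2bc, Hist1h2bq and Hist1h2br, every transcript that goes on past the stop codon is spliced. A stem-loop in DNA outside these transcripts could not be found. Hist1h3g and Hist1h4a matched when 1 mismatch was allowed. A further 14 genes, Hist1h3i and Hist1h2ak among them, are annotated to less than 16 nt past the stop codon, so these letters could not be looked for there. The annotated transcript stopped within 80 nt after the stem-loop in 21 genes and went on further in 21. In 14 of the genes with the longer end, the added stretch held the poly(A) signal letters AATAAA or ATTAAA. The median of the genes' mean TPM was 5.70 where the transcript stopped within 80 nt and 5.84 where it went on. The median level was thus near the same for both groups of genes. The ends are those of M21, whereas TPM rest on transcripts that can lack the longer end, such as Hist1h4d with 393 nt against 1138 nt. These medians therefore describe the groups of genes only, and the levels of short and long ends themselves were not compared.

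Histone RNA was abundant and very uneven. The 66 genes together held 4828 TPM in pup 2 and 4963 TPM in pup 1, or 0.483% and 0.496% of all TPM, with a mean of 0.490% ± 0.00960 (SD, n = 2). They held 73839 expected counts in pup 2 and 75639 in pup 1. Detection, meaning at least 1 TPM in each liver, was reached by 49 of the 66 genes, against 28.5% of all Ensembl genes and 52.9% of protein-coding ones. The median gene had 5.26 TPM in pup 2 and 5.54 TPM in pup 1. Hist1h2ap alone held 67.5% ± 0.963 of the histone TPM, the 4 highest held 82.7% ± 1.30 and the 20 highest 96.7% ± 0.397. By mean TPM, 5 genes reached 100, 16 lay between 10 and 100, 32 between 1 and 10, and 9 below 1. The other 4, Hist1h1t, Hist1h2aa, Hist1h4m and Hist1h2ao, had 0 counts in both livers. For Hist1h1t and Hist1h2aa, whose posterior SD was also 0, a count of 0 at these depths allows up to 3 counts, or 0.0724 CPM in pup 2 and 0.0712 in pup 1. That limit does not apply to Hist1h2ao and Hist1h4m, whose reads were divided with a near-identical gene: their credible intervals reached up to 3.09 and 2.01 TPM in pup 2 and 2.73 and 2.02 TPM in pup 1.

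**Figure D1:**
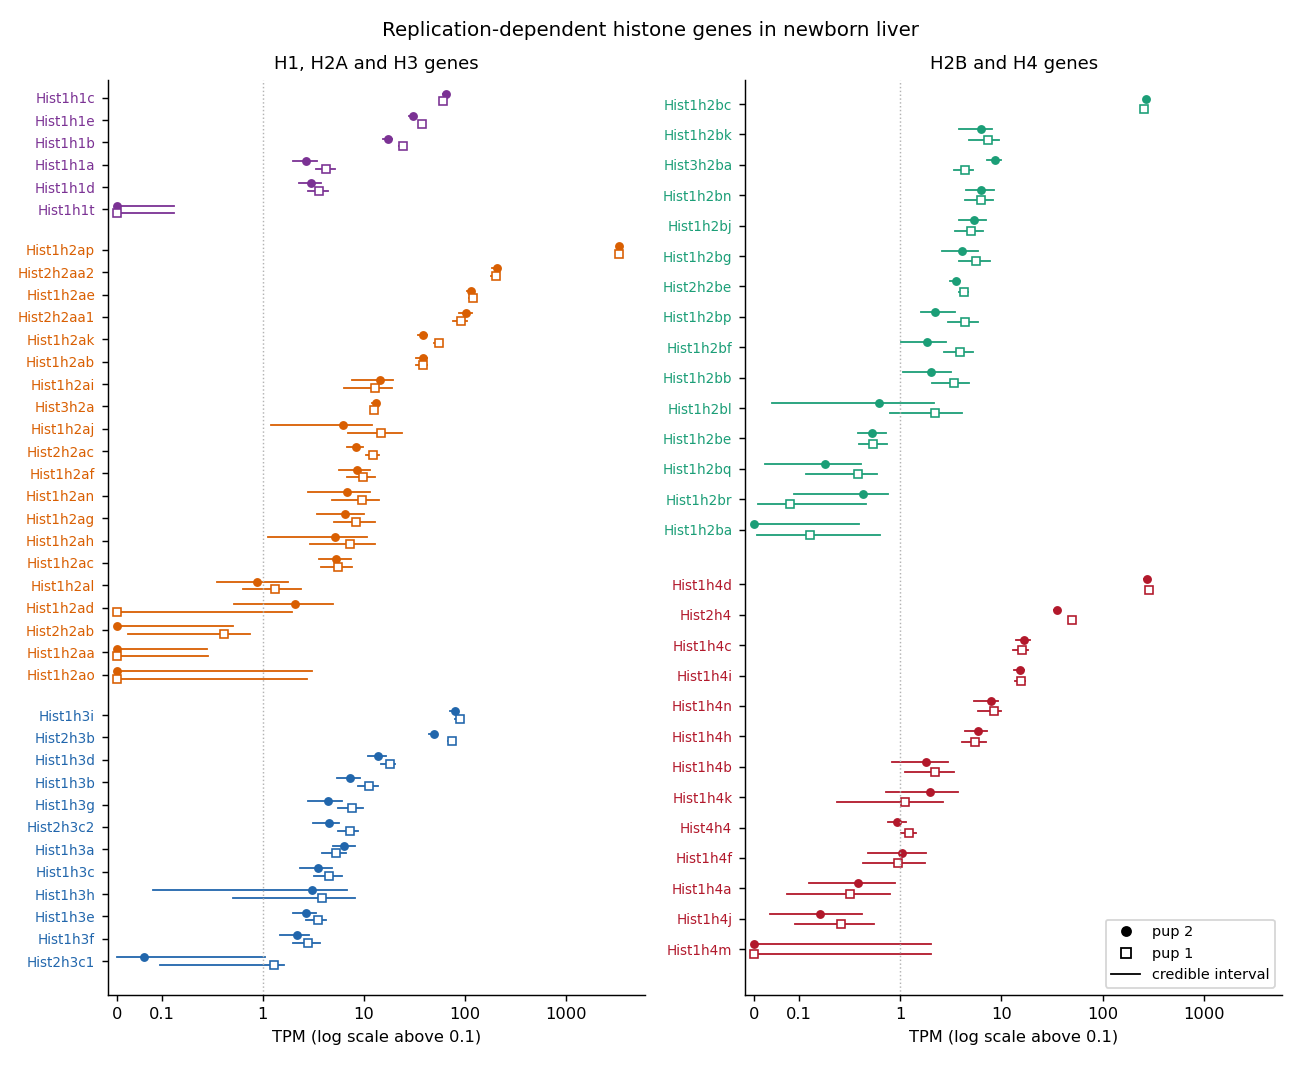
TPM of each of the 66 histone genes (rows, grouped by type) in pup 2 (filled circles) and pup 1 (open squares), with the authors' credible interval as a line, on an axis that is logarithmic above 0.1 TPM, where the dotted line marks 1 TPM. Hist1h2ap (3289 TPM in pup 2, 3314 TPM in pup 1) stands far above the rest, while 32 genes have a mean of 1 to 10 TPM and 4 are at 0.

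By type, H2A genes held 80.03% of the histone TPM in pup 2 and 78.8% in pup 1, with a mean of 79.4% ± 0.855. H4 genes held 7.68% ± 0.304, H2B genes 6.27% ± 0.255, H3 genes 4.10% ± 0.671 and H1 genes 2.52% ± 0.135. H2A stood first for Hist1h2ap, and without that gene its 19 remaining genes held 11.97% ± 0.108 of the total, still the largest of the 5 shares. The order changed when the genes under 50% unique windows, described further on, were left out: H4 then held 36.0%, H2B 28.9% and H2A 19.1%. This filter takes out Hist1h2ap itself, which shares 92.2% of its windows with another H2A gene, Hist1h2ao. The filtered order therefore cannot say how read division bears on the H2A share. Uniqueness was taken on M21 transcripts, which can be longer than the counted ones. Hist1h2ae, for example, has 704 nt in M21 and 460 nt in the deposited tables, so its uniqueness among counted bases can differ. By cluster, Hist1 held 90.9% ± 0.237, Hist2 8.64% ± 0.310, Hist3 0.395% ± 0.0769 and Hist4 0.0221% ± 0.00380. The median gene of Hist2, with 8.40 TPM in pup 2 and 12.3 TPM in pup 1, was above that of Hist1, with 4.77 TPM in pup 2 and 5.38 TPM in pup 1.

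**Figure D2:**
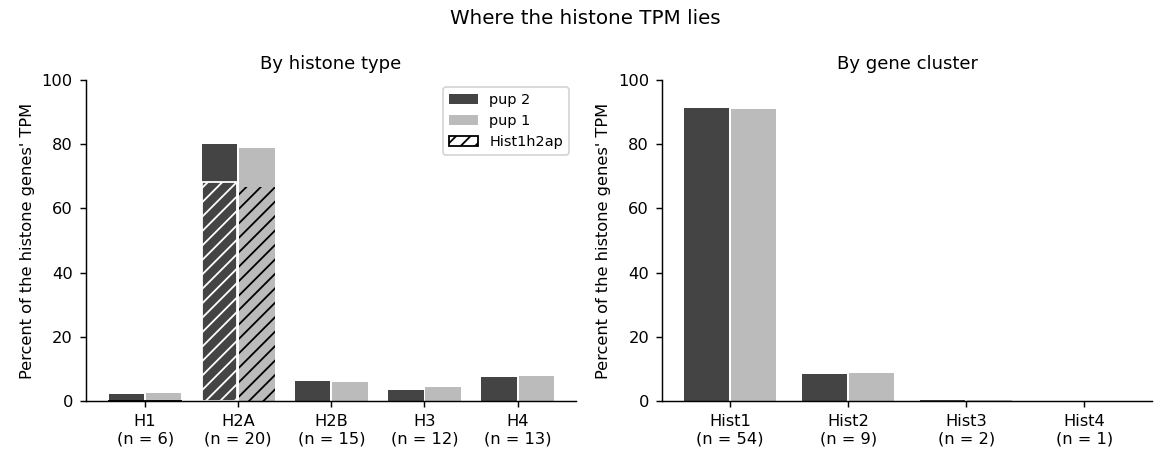
Percent of the TPM of all 66 histone genes held by each type (left) and cluster (right), with dark bars for pup 2 and light bars for pup 1, n being the number of genes. Hatching marks Hist1h2ap, which makes up most of the H2A bar, and the Hist1 cluster holds over 90% in both livers.

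Among the H2A genes, Hist1h2ap (ENSMUSG00000094777.2, chr13:21833026-21833507, minus strand) had 3289 TPM in pup 2, from 45116 expected counts, and 3314 TPM in pup 1, from 45159. Its mean of 3302 ± 17.6 TPM ranked 37 among all Ensembl genes. In both livers the TPM lay just above the authors' credible interval, which ran from 3206 to 3267 in pup 2 and from 3228 to 3290 in pup 1. The posterior mean that the tables give beside it, 3236 TPM in pup 2 and 3260 TPM in pup 1, lay inside. Hist2h2aa2 followed with 204 TPM in pup 2 and 199.7 TPM in pup 1, and its neighbour Hist2h2aa1, which encodes the same protein, had 102 TPM in pup 2 and 91.0 TPM in pup 1. Hist1h2ae had 114 TPM in pup 2 and 119.8 TPM in pup 1. These 4 genes were close in both livers, and their intervals overlapped between the livers.

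The middle of the H2A group began with Hist1h2ak, which had 38.6 TPM in pup 2 and 54.8 TPM in pup 1. Hist1h2ab had 37.99 TPM in pup 2 and 38.1 TPM in pup 1, and Hist1h2ai had 14.3 TPM in pup 2 and 12.8 TPM in pup 1. Hist3h2a, the H2A gene of the Hist3 pair and the highest gene of that cluster, had 13 TPM in pup 2 and 12.6 TPM in pup 1. The pseudogene Hist1h2aj had 6.16 TPM in pup 2 and 14.8 TPM in pup 1, with wide intervals from 1.19 to 11.9 and from 6.998 to 23.6 that overlapped. Hist2h2ac had 8.40 TPM in pup 2 and 12.3 TPM in pup 1. Hist1h2af, Hist1h2an, Hist1h2ag, Hist1h2ah and Hist1h2ac lay from 5.18 to 8.48 TPM in pup 2 and from 5.52 to 9.65 TPM in pup 1. The pseudogene Hist1h2al had 0.88 TPM in pup 2 and 1.33 TPM in pup 1, Hist1h2ad had 2.08 TPM in pup 2 and was listed at 0 in pup 1, and Hist2h2ab was listed at 0 in pup 2 and had 0.41 TPM in pup 1. Hist1h2aa, which encodes a testis H2A, had no counts, like Hist1h2ao.

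Among the H2B genes Hist1h2bc stood alone, with 269 TPM in pup 2 and 254 TPM in pup 1, or 6142 and 5764 expected counts. Its M21 annotation spans chr13:23684199-23692908 on the plus strand, and it is 1 of 5 members with a spliced transcript, the others being Hist1h2bp, Hist1h2be, Hist1h2bq and Hist1h2br. Next came Hist1h2bk with 6.30 TPM in pup 2 and 7.42 TPM in pup 1, and Hist3h2ba with 8.69 TPM in pup 2 and 4.33 TPM in pup 1. Hist1h2bn, Hist1h2bj, Hist1h2bg, Hist2h2be and Hist1h2bb lay between 2.01 and 6.36 TPM in pup 2 and between 3.39 and 6.28 TPM in pup 1. Hist1h2bp had 2.20 TPM in pup 2 and 4.35 TPM in pup 1, Hist1h2bf had 1.85 TPM in pup 2 and 3.91 TPM in pup 1, and Hist1h2bl had 0.62 TPM in pup 2 and 2.19 TPM in pup 1. Hist1h2be, Hist1h2bq and Hist1h2br stayed at or below 0.54 TPM in both livers, and Hist1h2ba, the testis H2B gene, was listed at 0 in pup 2 and had 0.13 TPM in pup 1.

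The H3 genes were led by Hist1h3i, with 78.8 TPM in pup 2 and 88.3 TPM in pup 1, and by Hist2h3b, with 48.6 TPM in pup 2 and 73.8 TPM in pup 1. Hist1h3d had 13.8 TPM in pup 2 and 17.9 TPM in pup 1. Hist1h3g had 4.36 TPM in pup 2 and 7.56 TPM in pup 1. Hist1h3a, Hist1h3b, Hist1h3c, Hist1h3e, Hist1h3f, Hist1h3h and Hist2h3c2 lay from 2.16 to 7.30 TPM in pup 2 and from 2.82 to 11.2 TPM in pup 1. Hist2h3c1 was lowest, with 0.06 TPM in pup 2 and 1.28 TPM in pup 1. The other 11 genes each reached 1 TPM in both livers, and no H3 gene was at 0.

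The H4 genes all encode the same protein, so the level is split among 13 sources of 1 product. Hist1h4d gave most of it, with 273 TPM in pup 2 and 290.2 TPM in pup 1 from 2875 and 3035 expected counts. The tables use a Hist1h4d transcript of 393 nt, whereas M21 annotates 1138 nt, and a longer transcript would change the length by which its reads are divided. Hist2h4 had 35.1 TPM in pup 2 and 49.8 TPM in pup 1. Hist1h4c had 16.7 TPM in pup 2 and 16.01 TPM in pup 1, and Hist1h4i had 15.3 TPM in pup 2 and 15.6 TPM in pup 1. Hist1h4n and Hist1h4h lay from 5.84 to 7.88 TPM in pup 2 and from 5.55 to 8.45 TPM in pup 1. Hist1h4b, Hist1h4k, Hist1h4f, Hist1h4a and Hist1h4j lay at or below 2.19 TPM in both livers. Hist4h4, the only gene of its cluster, had 0.94 TPM in pup 2 and 1.23 TPM in pup 1, and Hist1h4m had no counts.

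Of the 6 linker histone genes, Hist1h1c was highest, with 63.8 TPM in pup 2 and 60.1 TPM in pup 1. It held 50.3% ± 5.80 of the H1 TPM. Hist1h1e had 30.4 TPM in pup 2 and 37.6 TPM in pup 1, and Hist1h1b had 17.4 TPM in pup 2 and 24.5 TPM in pup 1. Hist1h1a had 2.67 TPM in pup 2 and 4.24 TPM in pup 1, and Hist1h1d had 2.99 TPM in pup 2 and 3.62 TPM in pup 1. The testis linker histone gene Hist1h1t had no counts. The order of the first 3 genes was the same in both livers, and the gaps between them exceeded the difference between the livers.

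Grouped by the protein they encode, the 18 coding H2A genes made 9 proteins, the 15 H2B genes 8, the 12 H3 genes 2 and the 13 H4 genes 1. The H2A protein shared by 9 genes, Hist1h2ap and Hist1h2ae among them, held 89.8% ± 0.216 of the H2A TPM. The H2B protein of Hist1h2bc, Hist1h2be and Hist1h2bg held 87.1% ± 1.24 of the H2B TPM. The H3 proteins were nearly even: the one encoded by 8 genes including Hist2h3b held 47.2% in pup 2 and 53.8% in pup 1, and the one encoded by Hist1h3a, Hist1h3g, Hist1h3h and Hist1h3i held 52.8% in pup 2 and 46.2% in pup 1. Which of these 2 stood first thus depended on the liver.

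Similar genes share reads, and a read that matches several genes was divided among them by an estimate. For each gene, all windows of 100 nt in its M21 transcripts, the read length implied by the tables, were searched in the transcripts of every other M21 gene on both strands. Under 50% of the windows were unique in 28 of the 66 genes, and these 28 held 79.8% of the histone TPM in pup 2 and 79.0% in pup 1. Another 27 genes had from 50% to under 90% unique windows and 11 had 90% or more. All windows were unique in Hist1h4d, Hist2h4, Hist1h1b, Hist2h2be, Hist1h1a and Hist1h1t, which held 7.19% ± 0.454 of the histone TPM. The tables' own measure, the posterior SD of the count, was 0 in both livers, with counts present, for Hist2h4, Hist1h1b, Hist2h2be, Hist1h1a and Hist4h4. It was over 20% of the count in both livers for 13 genes, which held only 1.1% ± 0.216 of the histone TPM, and under 5% in 23 genes, which held 94.5% ± 0.318.

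**Figure D3:**
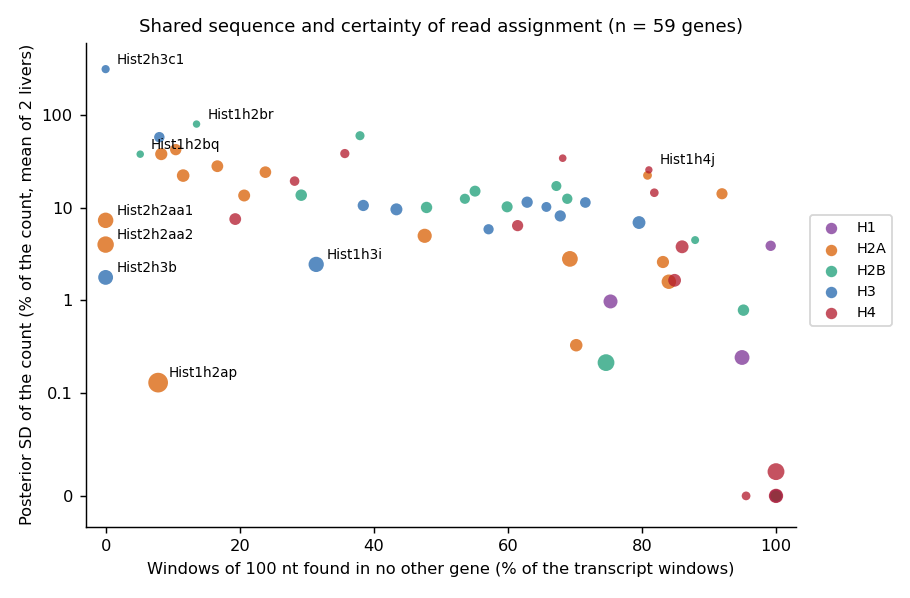
Posterior SD of the expected count as a percent of the count (vertical, mean of the 2 livers, logarithmic above 0.1) against the percent of 100-nt windows found in no other gene (horizontal) for the 59 histone genes with counts in both livers, coloured by type, with larger points for higher mean TPM. Hist1h2ap combines 7.83% unique windows with a posterior SD near 0.13%, whereas Hist2h3c1, with no unique window, lies highest.

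Some genes had no unique window at all: Hist2h2aa1, Hist2h2aa2, Hist2h3b and Hist2h3c1. The 528 nt of Hist2h2aa2 lie whole within the 586 nt of Hist2h2aa1, so only their sum, 306 TPM in pup 2 and 291 TPM in pup 1, is free of the division between them. All windows of Hist2h2aa1 also occur in the antisense gene Gm20633, and those of Hist2h3b in the antisense gene Gm20628, which held 54.8 and 99.2 expected counts in pup 2 and 47.5 and 94.1 in pup 1. Whether strand was used in counting is not stated, so reads of these genes and of their antisense partners cannot be told apart here. Gm20634 overlaps Hist2h2aa1 and Hist2h3c1 on the same strand and shares 88.3% and 100% of their windows. It held 227.59 expected counts in pup 2 and 185.96 in pup 1, and strand would not separate its reads from theirs. Another gene model lay on the opposite strand of 22 histone genes. Of the 44 genes outside the histone set that shared a window, 26 were not in the tables.

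The most abundant gene was also one of the least unique. Hist1h2ap and Hist1h2ao share a run of 452 nt out of 482 and 480 nt, with the same coding sequence, and 7.83% of the Hist1h2ap windows were unique. The transcripts differ only at the ends as annotated: Hist1h2ap begins 30 nt earlier and Hist1h2ao ends 28 nt later. These ends are the stretches that can set the genes apart in reads counted against the annotation, and they are given here from GENCODE M21 on GRCm38.

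Hist1h2ap, first 30 nt (chr13:21833478-21833507, minus strand): gtacggttttcagaagctgtctactttcta

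Hist1h2ao, last 28 nt (chr13:21810917-21810944, plus strand): cacagtgtcttttaaagaactgaatact

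The estimate gave Hist1h2ap all the counts and Hist1h2ao 0 in both livers. An H4 pair was split in the same way: Hist1h4n had 7.88 TPM in pup 2 and 8.45 TPM in pup 1, and Hist1h4m, which shares a run of 366 nt with it, had none. How much of the summed level of either pair came from each locus was not tested.

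Many H2A and H2B genes stand as neighbours read in opposite directions, with their starts on a shared stretch of DNA. There were 12 such pairs, with M21 starts 176 to 306 nt apart. The partners were often far from equal. Hist1h2ap had a mean of 3302 TPM against 0.255 TPM for Hist1h2br, Hist1h2bc 262 TPM against 5.43 TPM for Hist1h2ac, and Hist1h2ae 117 TPM against 4.87 TPM for Hist1h2bg. By mean TPM the H2A gene was the higher partner in 7 pairs and the H2B gene in 5. Of these 5, the lead of Hist1h2bq over Hist1h2ao and of Hist1h2ba over Hist1h2aa rests on partners at 0 and lies within their intervals, and Hist1h2bf was above Hist1h2ad in pup 1 but not in pup 2. The H2B gene led in both livers, with both partners above 0, for Hist1h2bc and, with overlapping intervals, Hist1h2bk. Among the pairs with both means above 0, 5 were over 5-fold apart and 5 under 3-fold. Hist1h2ah and Hist1h2bk were the closest, at 6.24 and 6.86 TPM. Shared reads touch these ratios, since 86.4% of the Hist1h2br windows also occur in Hist1h2bq.

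**Figure D4:**
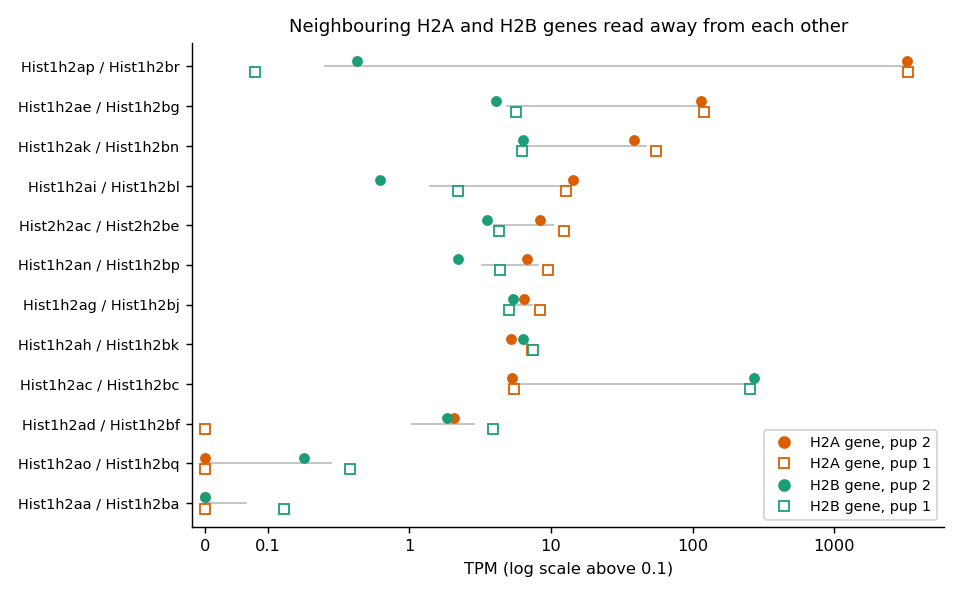
TPM of both genes in the 12 pairs of neighbouring H2A (orange) and H2B (green) genes read away from each other, with filled circles for pup 2 and open squares for pup 1, and a grey line between the means, on an axis that is logarithmic above 0.1 TPM. The Hist1h2ap and Hist1h2br pair is farthest apart and the Hist1h2ah and Hist1h2bk pair closest.

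Promoter windows, 250 bases before to 50 after the RefSeq start (GRCm38.p6), were matched for 59 of the 66 genes and searched on both strands for 4 motifs. CCAAT, the CCAAT box, was in 84.7% of them, against 37.4% of all 32851 promoters, and in all windows of H1, H2A, H2B and H3 genes but only 3 of 12 H4 windows. TATAAA, the core of the TATA box, was in 59.3%, against 13.6% of all promoters. ATTTGCAT, the octamer bound by Oct factors such as Pou2f1, was in 7 of 18 H2A and 4 of 13 H2B windows and in no H1, H3 or H4 window, or 18.6% of the histone windows against 1.74% of all. AAACACA, known from H1 promoters, was in 5 of 6 H1 windows and in 13.6% of all histone windows, against 7.18% of all promoters. Divergent neighbours have overlapping windows and are not independent, and a match is a description of letters only. The following 4 stretches are limited to bases outside annotated exons, with motif letters of either strand in capitals. They belong to an abundant H2A gene, an H2A gene whose window holds the octamer, an H1 gene and an H4 gene.

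Hist1h2ap (chr13:21833508-21833725, minus strand): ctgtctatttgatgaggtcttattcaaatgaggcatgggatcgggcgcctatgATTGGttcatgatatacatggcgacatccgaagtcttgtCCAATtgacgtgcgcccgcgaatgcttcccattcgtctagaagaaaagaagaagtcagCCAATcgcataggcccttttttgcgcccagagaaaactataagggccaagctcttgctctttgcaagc

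Hist1h2ae (chr13:23571221-23571395, minus strand): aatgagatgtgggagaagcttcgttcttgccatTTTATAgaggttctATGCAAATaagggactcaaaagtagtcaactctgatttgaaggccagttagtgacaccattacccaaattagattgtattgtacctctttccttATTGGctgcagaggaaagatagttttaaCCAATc

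Hist1h1e (chr13:23622559-23622808, minus strand): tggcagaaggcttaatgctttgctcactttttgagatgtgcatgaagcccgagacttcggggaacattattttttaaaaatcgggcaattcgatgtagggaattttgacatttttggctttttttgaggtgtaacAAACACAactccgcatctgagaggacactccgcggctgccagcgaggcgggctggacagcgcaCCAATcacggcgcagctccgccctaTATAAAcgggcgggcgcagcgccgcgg

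Hist1h4i (chr13:22041363-22041612, minus strand): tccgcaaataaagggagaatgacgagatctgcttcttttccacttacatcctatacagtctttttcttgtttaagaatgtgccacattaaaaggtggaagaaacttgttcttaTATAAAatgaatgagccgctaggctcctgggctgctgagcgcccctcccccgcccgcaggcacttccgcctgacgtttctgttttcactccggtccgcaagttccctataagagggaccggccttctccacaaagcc

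The Hist1h2ap window held CCAAT and none of the other motifs, whereas the Hist1h2ae window held the CCAAT box, the TATA box core and the octamer. The 300-base windows of Hist1h2ap and Hist1h2ao share a run of 200 bases.

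To set the livers side by side, the log2 ratio of TPM + 1, pup 2 over pup 1, was taken for the 53 histone genes with a mean of at least 1 TPM. On this scale the change of scarce genes comes out too small. None of the 53 was 2-fold apart with credible intervals that did not overlap, against 0.629% of all 12711 genes, 0.0629% being lower and 0.566% higher in pup 2. At 1.5-fold 2 genes passed, against 1.47% of all genes. One was Hist2h3b, with 48.6 TPM in pup 2 and 73.8 TPM in pup 1 and thus a log2 ratio of -0.59, where 0.472% of all genes were lower by this rule. The other was Hist3h2ba, with 8.69 TPM in pup 2 and 4.33 TPM in pup 1 and thus a log2 ratio of 0.86, where 0.999% were higher. With no pseudocount, a choice made after seeing the data, its log2 ratio was 1.005, and it was then 2-fold apart, as were 0.944% of all genes. Intervals were apart at any size for 8 histone genes, against 20.1% of all genes. Of these, 6 were lower in pup 2, namely Hist2h3b, Hist1h2ak, Hist2h4, Hist1h1e, Hist1h1b and Hist2h2ac, against 13.8% of all genes, and 2 were higher, Hist1h2bc and Hist3h2ba, against 6.27%. Taken over all levels, these shares of the 53 genes are below the shares of all genes in both directions. The comparison depends on level, however. At a mean of 10 TPM or more, 6 of 21 histone genes were apart and lower in pup 2, a larger share than the 1132 of 6005 genes. At that level 1 was apart and higher, against 564 of 6005. At 1 to 10 TPM, 0 of 32 histone genes were apart and lower, against 628 of 6706, and 1 was higher, against 233.

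Most of the small differences leaned to lower values in pup 2: 39 of the 53 genes were lower there, against 63.0% of all genes, and 14 were higher, against 36.6%. The median log2 ratio was -0.21 for the histone genes and -0.05 for all genes. By type the median was -0.30 for H3 and for H1 genes, -0.22 for H2B, -0.09 for H4 and -0.07 for H2A, which includes Hist1h2ap at -0.01. Each of these medians stayed negative under the 7 other scalings, pseudocounts and filters tried, though with TMM scaling the H2A median came to -0.0044, with all genes at 0.0023. Hist1h2aj, Hist1h3g, Hist1h2bp, Hist1h2bf and Hist1h2bl were also 1.5-fold or more lower in pup 2, and Hist1h2ad higher, but their intervals overlapped and their counts were low, at most 55.8 in pup 2 and 133 in pup 1. All 10 genes of a list marking dividing cells, such as Mki67, Top2a and Mcm2, were lower in pup 2 with intervals apart, against 13.8% of all genes. Each had a mean of 10 TPM or more, where 1132 of 6005 genes were apart and lower. The list had a median log2 ratio of -0.24 and a summed level of 793 TPM in pup 2 and 921 TPM in pup 1. The part of these 10 genes in the histone difference was not tested.

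**Figure D5:**
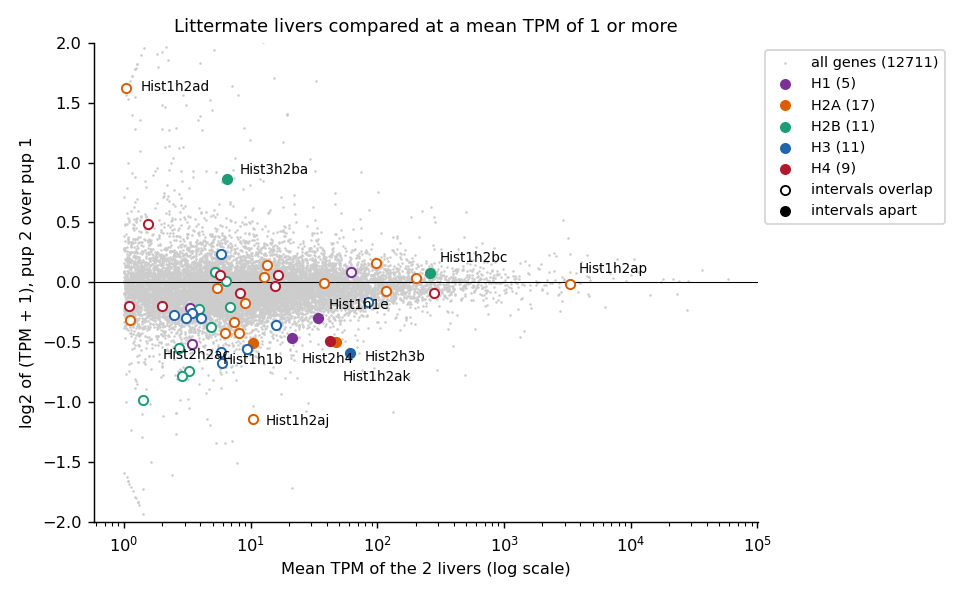
Log2 of TPM + 1 in pup 2 over pup 1 (vertical) against the mean TPM of both livers (horizontal, logarithmic) for the 53 histone genes with a mean of at least 1 TPM, coloured by type, over the 12711 genes tested (grey, 64 of them outside the drawn range of 2 on either side). Filled points have credible intervals that do not overlap, which holds for 8 histone genes, and Hist1h2ap lies close to 0.

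Among genes that act on histone mRNA, 23 of 25 measured ones were detected in both livers, against 52.9% of protein-coding genes. Slbp, which binds the stem-loop, was the highest, with 127 TPM in pup 2 and 134 TPM in pup 1. Mif4gd, which links Slbp to translation, had 33.0 TPM in pup 2 and 35.2 TPM in pup 1. The S phase regulators Ccne1, Cdk2 and Ccne2 had 27.1, 25.1 and 23.0 TPM in pup 2 and 28.5, 28.6 and 28.8 TPM in pup 1. Npat, the coactivator that cyclin E and Cdk2 switch on at histone genes, had 2.90 TPM in pup 2 and 3.42 TPM in pup 1. Zfp473, a partner of the particle that cleaves histone mRNA, and Ctif, a cap-bound translation factor, were below 1 TPM, at 0.21 and 0.86 in pup 2 and 0.12 and 0.76 in pup 1. Of the 23 detected genes 4 were lower in pup 2 with intervals apart, against 13.8% of all genes, and the median log2 ratio of the list was -0.09, against -0.05 for all genes.

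Replacement histones, which are made outside S phase as well and mostly from mRNAs with poly(A) tails, were measured by 14 genes, of which 11 were detected, against the same 52.9%. H3f3a had 1137 TPM in pup 2 and 1131 TPM in pup 1, H2afz had 573 TPM in pup 2 and 599 TPM in pup 1, and H3f3b had 549.6 TPM in pup 2 and 563 TPM in pup 1. H2afx, whose transcript also holds a stem-loop, had 133 TPM in pup 2 and 145 TPM in pup 1, and H2afv had 119 TPM in pup 2 and 118 TPM in pup 1. H1foo, Hils1 and H2afy3 were listed at 0. The 12 replication-dependent H3 genes together were far below H3f3a and H3f3b, with a log2 ratio of -3.08 ± 0.261 (SD, n = 2). The 20 H2A genes were above H2afz and H2afv, at 2.47 ± 0.0236, but without Hist1h2ap slightly below them, at -0.27 ± 0.00490. The H1 genes were about level with H1f0 and H1fx, at 0.22 ± 0.214. These ratios set RNAs mostly without a poly(A) tail against RNAs mostly with one. The priming is not recorded, and its part in the ratios was not tested.

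The 17 histone chaperones and deposition factors listed were all detected, again against 52.9% of protein-coding genes. Rbbp7, a histone-binding subunit of several complexes, had 168 TPM in pup 2 and 190.02 TPM in pup 1, and its relative Rbbp4 had 140.1 TPM in pup 2 and 145 TPM in pup 1. Ssrp1 of the FACT complex had 60.7 TPM in pup 2 and 70.6 TPM in pup 1. The nucleosome assembly proteins Nap1l1 and Nap1l4 had 55.7 and 44.5 TPM in pup 2 and 56.7 and 49.6 TPM in pup 1. Intervals were apart for 9 of the 17 genes, all of them lower in pup 2, against 13.8% of all genes lower by this rule. Most of the 17 had a mean of 10 TPM or more, where 1132 of 6005 genes were lower by this rule. The median log2 ratio of the 17 was -0.13.

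All 6 hepatocyte markers, all 5 erythroid precursor markers and all 4 neutrophil markers listed were detected in both livers, and 2 of 4 lymphoid ones. The 5 striated muscle markers, all detected, summed to 683 TPM in pup 2 and 34.0 TPM in pup 1. The 5 pancreas markers, of which 1 was detected in both livers, summed to 102 TPM in pup 2 and 1.96 TPM in pup 1. Their part in the histone levels was not tested.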

How the data were processed

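Total RNA-seq of 2 newborn livers was used as deposited. Expected counts and TPM were deposited by the authors per gene, on mm10 with the GENCODE M4 annotation, per the labels; the counter is not given in the sources used here. FPKM values were deposited by the authors and served as an alternative only. The credible bounds of TPM were deposited by the authors and handled as a score, since the file headers name no credible level. The deposited transcript tables give the percent of each gene's TPM per transcript. Symbols, coordinates and transcripts came from GENCODE M21, where 49 of 71 shared histone transcripts have the length in the tables and 18 are shorter in the tables, so windows, stem-loops and counts rest on annotations that differ. Detection, ratios, windows of 100 nt and motifs were computed with Python 3.11.15, pandas 2.3.3 and numpy 2.4.6, and figures with matplotlib 3.10.9. Alternative scalings of rounded expected counts used edgeR 4.0.16 and DESeq2 1.42.0. The floor of 3 counts covers counting error only. The intervals cover counting and the division of reads within a library, and not the spread between animals. With 1 library per pup no p-value is given. Genes named were the 20 highest, the extremes of each type and cluster, and those 1.5-fold apart. The members and lists were chosen with earlier results of these data known.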

Additional observations from a re-analysis of the deposited data

Results flagged for a closer look

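Reads were also assigned to histone-like pseudogenes that lie outside the 66 genes, above the 3 counts that a count of 0 allows. The pseudogene Gm11336, which shares up to 33.0% of the windows of 15 histone genes, held 11.26 expected counts in pup 2 and 14.84 in pup 1. The pseudogene Hist3h2bb-ps, whose only shared windows are with Hist3h2ba, held 7.67 expected counts in pup 2 and 6.58 in pup 1. Read division with the histone genes was not tested for either.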

How the results depend on the processing

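No paired analysis was possible because both livers belong to 1 group. Without either replicate, the histone share of TPM ran from 0.483% to 0.496%, detection from 51 to 53 genes, the median from 5.26 to 5.54 TPM, the shares from 2.43% to 2.62% (H1), 78.8% to 80.03% (H2A), 6.09% to 6.45% (H2B), 3.63% to 4.58% (H3), 7.46% to 7.89% (H4), 90.8% to 91.1% (Hist1), 8.42% to 8.86% (Hist2), 0.341% to 0.449% (Hist3), 0.0195% to 0.0248% (Hist4) and 66.8% to 68.1% (Hist1h2ap). As a share of expected counts, with no length correction, the values were 0.179% for all members, 6.21% for H1, 72.5% for H2A, 9.27% for H2B, 8.19% for H4, 86.8% for Hist1, 11.6% for Hist2, 1.41% for Hist3, 0.144% for Hist4 and 60.4% for Hist1h2ap. Leaving out genes with under 50% unique windows, Hist1h2ap among them, gave 0.101% for all members, 12.2% for H1, 19.1% for H2A, 28.9% for H2B, 36.0% for H4, 92.4% for Hist1, 5.59% for Hist2, 1.92% for Hist3 and 0.107% for Hist4, so that H2A stood below H4 and H2B. The median was 4.61 with FPKM and 6.97 TPM over genes at 1 TPM or more. The median log2 ratio was -0.41 by the spike-in total, where all genes stood at -0.26, and -0.13 with TMM, and it was negative under all 8 alternatives. The spike-in total rests on 190 expected counts in pup 2 and 163 in pup 1, so that scaling is itself uncertain. The number 2-fold apart was 2 with no condition on the intervals and 2 at 1.5-fold; chosen after seeing the data, it was 1 with no pseudocount (Hist3h2ba), and with intervals apart at any size 6 were lower and 2 higher in pup 2. Under 90% unique windows held for 55 genes. The cause of each shift was not tested, except that expected counts are not divided by length and the unique set holds fewer genes. Of 93 alternative values, 65 stayed within the replicate spread or 1.5 times the count. Of the 13 genes below a mean of 1 TPM, Hist1h2ao, Hist1h4m, Hist2h3c1, Hist1h2bq, Hist1h2br and Hist2h2ab have under 50% unique windows. Read division as well as depth thus bears on these genes, and the part of each was not tested.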
